A study of Mus musculus with 15 samples.

Results

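The 8 T-box genes *T* (Brachyury), *Eomes*, *Tbx1*, *Tbx2*, *Tbx3*, *Tbx4*, *Tbx6* and *Tbx20* were followed through the induction of mouse primordial germ cell-like cells (PGCLCs) by 4 transcription factors (4TF). They were chosen by name, among the 55536 genes of the count table, and all 8 were among the 18090 genes that passed the filter on low counts, *T* only through its level in ESCs. The 15 RNA-seq samples formed 5 groups of 3 replicates. Naive ESCs were grown in 2i+LIF (1 µM PD0325901, an inhibitor of MEK, 3 µM CHIR99021, an inhibitor of GSK3, and 1000 U/ml LIF). EpiLCs, which are formative epiblast-like cells, were made from ESCs by 48 h in 20 ng/ml Activin A and 12 ng/ml bFGF. PGCLCs were collected as Stella-eGFP+ cells on days 2, 4 and 6 (D2PGCLCs, D4PGCLCs and D6PGCLCs) of aggregate culture with 2 µg/ml doxycycline (Dox) and no BMP or other added cytokines. Cells of all 5 groups descended from ESCs carrying the Stella-eGFP reporter and Dox-inducible *Prdm1*, *Prdm14*, *Tfap2c* and *Nanog*, and Dox was given only during PGCLC culture. The study isolated clonal inducible lines, and the number of clones behind these samples is not given in the sources used here. The sort kept cells that expressed the *Stella* (*Dppa3*) reporter, so the PGCLC values do not describe the eGFP-negative cells of the same aggregates.

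T-box factors are transcription factors that bind DNA through a conserved T-box domain and that direct the formation of the primitive streak, mesoderm, heart and limbs. *T* is a target of Wnt signaling in the streak, and in cytokine-driven PGCLC cultures it is known as an activator of *Prdm1* and *Prdm14*, 2 of the genes supplied here as transgenes. *Tbx3* has another role in culture, as part of the network that keeps mouse ESCs in the naive state downstream of LIF.

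Library totals lay between 22555021 and 42725681 counts, at which 3 counts in a sample equal 0.0660 to 0.131 CPM (counts scaled to the size of the library). D6PGCLC replicate 1 stood apart, with 18061 genes detected against 21103 to 24343 in the other samples, and D6PGCLC results are therefore also given without it. The summed level of 5 naive markers was 2210 to 2238 CPM in ESCs and 348 to 351 CPM in EpiLCs, and that of 5 EpiLC markers was 214 to 218 CPM in ESCs and 2813 to 3044 CPM in EpiLCs. Of the 6 PGCLC markers, *Dppa3* belongs to the sort, and *Prdm1* and *Tfap2c* to the transgenes, whose reads the counts do not separate from those of the endogenous genes. All 6, including *Nanos3*, *Dnd1* and *Dazl*, were called higher in D2PGCLCs than in ESCs, against 11.7% of tested genes. Relative to EpiLCs, 5 of the 6 were called higher on day 2, 5 on day 4 and 4 on day 6, against 11%, 14% and 15.9%. In bulk RNA, fewer cells expressing a gene and less RNA per cell cannot be told apart.

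The 250 bases before the RefSeq start of *T*, *Eomes*, *Tbx1* and *Tbx4* (GRCm38.p6, read 5′ to 3′ on the strand of the gene) are shown because these genes followed 4 different courses: loss after the ESC stage, a dip in EpiLCs, a late gain in PGCLCs, and a gain in EpiLCs. Capitals mark the only match, over the windows found for 6 of the members, to either of 2 motifs searched on both strands, the T-box site GGTGTGA and the TCF/LEF core CTTTGA, which is the core bound by the DNA-binding partners of β-catenin.
T, chr17:8434173-8434422, plus strand: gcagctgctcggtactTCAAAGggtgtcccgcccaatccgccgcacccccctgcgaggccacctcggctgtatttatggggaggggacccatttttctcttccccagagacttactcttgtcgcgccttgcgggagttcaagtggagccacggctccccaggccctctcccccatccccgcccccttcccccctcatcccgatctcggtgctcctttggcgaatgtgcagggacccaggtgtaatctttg
Eomes, chr9:118477939-118478188, plus strand: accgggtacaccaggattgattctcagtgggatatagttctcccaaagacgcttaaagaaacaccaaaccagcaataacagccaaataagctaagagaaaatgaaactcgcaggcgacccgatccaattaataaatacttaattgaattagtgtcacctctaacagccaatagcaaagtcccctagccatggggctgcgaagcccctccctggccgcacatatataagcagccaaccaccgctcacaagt
Tbx1, chr16:18590672-18590921, minus strand: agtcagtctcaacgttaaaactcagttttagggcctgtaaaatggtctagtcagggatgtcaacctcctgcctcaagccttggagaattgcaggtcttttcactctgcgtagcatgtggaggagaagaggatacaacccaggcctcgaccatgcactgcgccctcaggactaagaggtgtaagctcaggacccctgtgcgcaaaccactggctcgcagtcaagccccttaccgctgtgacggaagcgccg
Tbx4, chr11:85896515-85896764, plus strand: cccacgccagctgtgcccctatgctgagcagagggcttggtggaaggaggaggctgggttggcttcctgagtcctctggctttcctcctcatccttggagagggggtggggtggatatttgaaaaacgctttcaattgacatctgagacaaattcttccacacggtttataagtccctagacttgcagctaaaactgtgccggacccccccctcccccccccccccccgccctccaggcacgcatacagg
The match is the reverse complement, TCAAAG, 234 to 229 bases before the start of *T*. Among 32841 RefSeq windows of this length, 13.8% held the TCF/LEF core and 3.33% the T-box site, which was in none of the 7 windows of the members (*Tbx1* had 2 starts). The *Tbx4* start used by RefSeq lies inside the gene as GENCODE draws it. CpG content differed between the windows: the observed over expected ratio of CpG was 0.749 for *Tbx20*, 0.621 for *Eomes*, 0.594 for *T*, 0.285 for *Tbx4* and 0.281 for *Tbx6*, with a median of 0.374 over all windows. *Tbx2* and *Tbx3* had no entry among these windows.

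Levels of the T-box genes are compared per length, as TMM-normalized CPM per kb of annotated exon, and the 8 genes together summed to 36.1 ± 0.517 (SD, n = 3) in ESCs and 5.51 ± 0.326 in EpiLCs. In PGCLCs the sum was 9.63 ± 1.01 on day 2, 14.3 ± 1.28 on day 4 and 18.0 ± 0.783 on day 6. The sum was therefore lowest in EpiLCs and below the ESC level on every day of PGCLC culture, with no overlap of samples between any 2 groups. The gene that led it changed from stage to stage. In ESCs *Tbx3* held 64.7% ± 1.19 of the sum, *T* 17.7% ± 0.595 and *Eomes* 14.5% ± 1.24. In EpiLCs *Tbx4* held 44.3% ± 3.24, *Eomes* 29.9% ± 1.08 and *Tbx3* 19.1% ± 1.34. *Eomes* led in D2PGCLCs with 47.6% ± 2.19. In D4PGCLCs *Tbx3* and *Eomes* held equal shares within their spread, 40.0% ± 4.95 and 39.6% ± 5.16. In D6PGCLCs *Tbx3* held 62.6% ± 6.20, with samples from 55.5% to 66.3% that overlapped those of ESCs, while *T* held 0.0571% ± 0.0536.

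**Figure D1:**
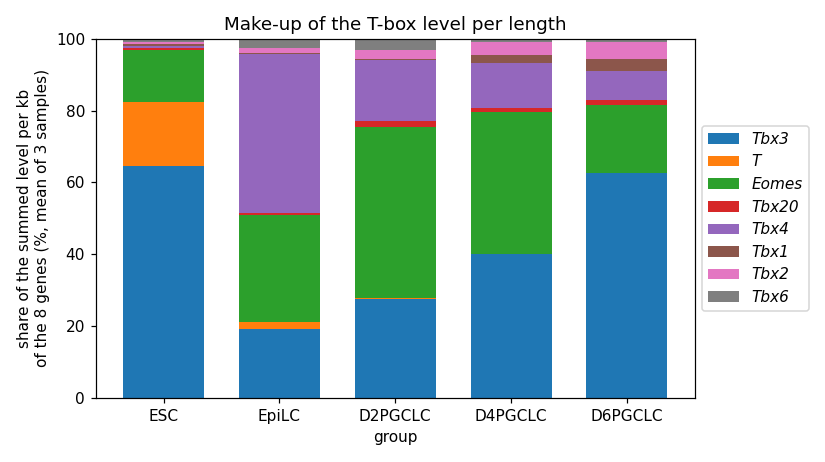
Share of each T-box gene in the summed level per kb of the 8 genes (y axis, %, mean of 3 samples) in the 5 groups (x axis), as stacked bars. The block of *Tbx3* is largest in ESCs and D6PGCLCs, that of *Tbx4* in EpiLCs and that of *Eomes* in D2PGCLCs, and the block of *T* is visible in ESCs and, at 2.00%, in EpiLCs.

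A gene was called a differentially expressed gene (DEG) where its edgeR adjusted p fell below 0.05 and its change exceeded 1 on the log2 scale in either direction. From ESCs to EpiLCs, 6 of the 8 genes were called lower (*T*, *Tbx3*, *Tbx1*, *Tbx20*, *Eomes* and *Tbx2*), where 11.9% of all tested genes were, and 1 was called higher (*Tbx4*), where 14.4% were. The 6 include *T*, which passed the filter only through its level in ESCs, and *Tbx2*, whose call was lost in 3 of 6 fits without 1 replicate. The median log2 fold change of the 8 genes was -2.37, and that of all tested genes -0.01. From EpiLCs to D2PGCLCs, 4 genes were called higher (*Eomes*, *Tbx2*, *Tbx3* and *Tbx20*), against 11% of tested genes, and none lower, against 14.4%. From day 2 to day 4, *Tbx1* and *Tbx3* were called higher, against 2.56% of tested genes, and none lower, against 0.376%. From day 4 to day 6, none of the 8 was called by edgeR, against 3.08% of tested genes called (2.29% higher and 0.785% lower); *Eomes* and *Tbx3* had adjusted p-values below 0.05 with changes smaller than the cutoff, and DESeq2 called 1 gene, *Tbx3*. Between days 2 and 6, *Tbx1*, *Tbx2* and *Tbx3* were called higher, against 10.9% of tested genes, and none lower, against 2.75%.

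**Figure D2:**
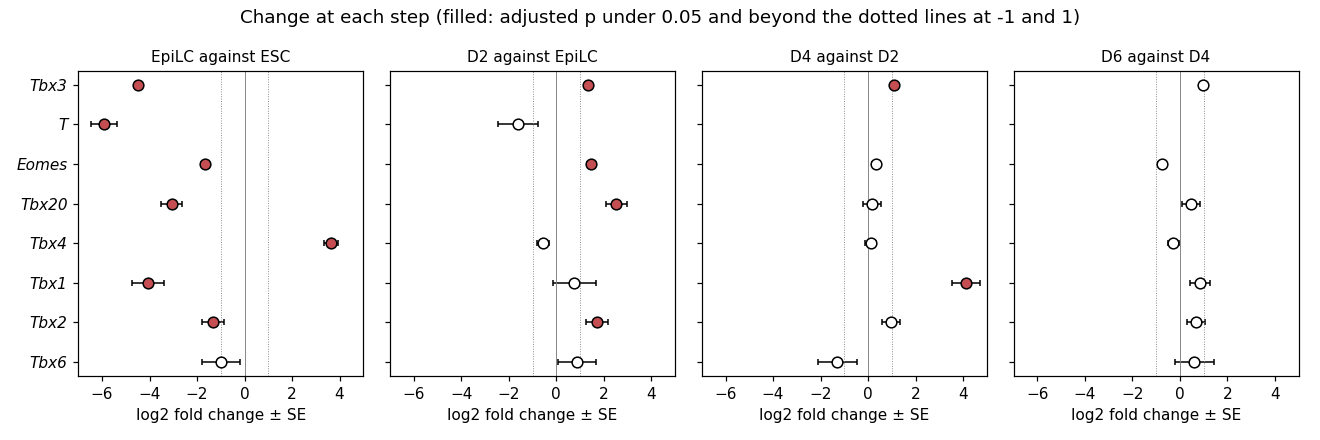
Fitted log2 fold change ± SE (x axis) of each T-box gene (y axis) at the 4 steps from ESCs to D6PGCLCs, with called changes filled and dotted lines at the cutoffs. In the step from ESCs to EpiLCs most points lie to the left and *Tbx4* alone lies to the right at 3.63, and in the next step the 4 filled points lie to the right. *T* is left out between days of PGCLC culture, where its counts were at or near the detection floor.

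*T*, the Brachyury gene of the primitive streak and early mesoderm (ENSMUSG00000062327, chr17 8434423-8442496, plus strand, protein coding), was measured at 405, 346 and 434 counts in ESC replicates 1 to 3. It had 8, 1 and 11 counts in EpiLCs, and in PGCLCs 0, 5 and 2 on day 2, 0, 3 and 0 on day 4, and 0, 2 and 1 on day 6. The 3 ESC samples stood far above the other 12 samples, which overlapped one another. The level in ESCs was 14.8 ± 0.316 CPM (SD, n = 3), and the log2 fold change of EpiLCs relative to ESCs was -5.92 ± 0.54 (SE). Over pooled counts, EpiLCs held 1.61% of the ESC level (95% exact interval 0.981% to 2.50%), and PGCLCs held 0.504% (0.202% to 1.04%) on day 2, 0.201% (0.0413% to 0.587%) on day 4 and 0.171% (0.0351% to 0.500%) on day 6, intervals that cover counting error only. *T* was called lower in EpiLCs than in ESCs, and in PGCLCs than in ESCs on each day. *T* passed the filter only through its ESC samples, which largely set the direction of these calls, and its counts are the result given here. From EpiLCs to D2PGCLCs its change did not pass the test (-1.63 ± 0.84, adjusted p = 0.113), and it did without EpiLC replicate 2 (-2.18) or D2PGCLC replicate 2 (-2.83), with adjusted p-values of 0.0244 and 0.0354. It was also called lower in D4PGCLCs and D6PGCLCs than in EpiLCs, with log2 fold changes of -2.87 ± 0.99 and -3.07 ± 0.97, but samples of the groups overlapped, and the calls were lost without EpiLC replicate 3 (adjusted p = 0.105 and 0.0730). Without D6PGCLC replicate 1 the change to day 6 was -2.57 (adjusted p = 0.0376). For D4PGCLCs the call was also lost without EpiLC replicate 1, D4PGCLC replicate 1 or D4PGCLC replicate 3, with adjusted p-values of 0.0549, 0.0657 and 0.0707. The interval between the EpiLC stage and day 2 was not sampled.

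The genes whose course was most like that of *T* over the 15 samples, by Pearson correlation of log2(CPM + 1) among 11595 genes reaching 5 CPM in a group mean, were *Fgf10* (r = 0.998), *Sp5* (r = 0.997) and *Pglyrp1* (r = 0.995). *Sp5*, a Wnt target, had mean levels of 36.3 CPM in ESCs and 0.397 CPM in EpiLCs, and *Fgf10*, which encodes a fibroblast growth factor, 21.9 and 0.319 CPM. These correlations are a description, since the samples of a group share their condition and the ESC samples set the pattern.

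*T* was set beside 20 other genes of the primitive streak and mesoderm, of which 18 passed the filter. In EpiLCs 4 of them were called lower than in ESCs and 6 higher, against 11.9% and 14.4% of tested genes. Their median log2 fold change was 0.30, against -0.01 for all genes. Among the largest changes, *Cdx1*, a caudal-type factor, fell by 5.66 ± 0.39 and *Evx1*, a homeobox gene of the streak, fell by 4.11 ± 0.65 on the log2 scale, as *T* did. *Dll1*, a Notch ligand of the presomitic mesoderm, and *Fgf8* were called higher, *Fgf8* by 4.76 ± 0.73. *Dll1* had 1 to 6 counts in ESCs and 1767 to 2351 in EpiLCs. Its ESC level over pooled counts was 0.149% of that in EpiLCs (95% exact interval 0.0680% to 0.282%, counting error only). From EpiLCs to D2PGCLCs 3 were called higher and 6 lower (median -0.97, all genes 0.00), against 11% and 14.4% of tested genes. *Wnt3a* rose by 4.56 ± 0.49, whereas *Dll1* fell by 6.07 ± 0.29, *Fgf8* by 5.77 ± 0.78 and *Foxa2*, a factor of endoderm and node, by 4.48 ± 1.01 on the log2 scale. *Fgf8* (102 to 192 counts in EpiLCs) and *Foxa2* (25 to 37) passed the filter only through their level in EpiLCs. That largely set the direction of their calls, which enter the counts above. The list thus held genes that moved with *T* and genes that moved against it. The summed level of 6 mesoderm markers (*Mixl1*, *Mesp1*, *Msgn1*, *Kdr*, *Evx1* and *Cdx2*) was 8.39 to 9.24 CPM in ESCs, 2.14 to 3.96 in EpiLCs, 1.95 to 3.71 on day 2, 1.92 to 4.79 on day 4 and 0.840 to 2.57 on day 6. In ESCs 5 of the 6 were detected and *Msgn1* was at 0 in all 3 samples. The ESC sum came mainly from *Evx1* (mean 4.00 CPM) and *Cdx2* (2.03 CPM), and *Kdr* was at 1.65 CPM in ESCs and 1.48 CPM in EpiLCs. This sum and *T* were both highest in ESCs, while *Dll1* (0.108 CPM in ESCs, 75.9 CPM in EpiLCs) and *Fgf8* (0.178 and 4.87 CPM), which are not among the 6, were highest in EpiLCs, and the part of cells expressing mesoderm genes in the level of *T* was not tested.

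*Eomes* (Eomesodermin, ENSMUSG00000032446, chr9 118478212-118486132, plus strand), a factor of the primitive streak, the definitive endoderm and the trophoblast, was at 19.4, 22.6 and 23.2 CPM in ESCs and at 6.31, 7.56 and 6.71 CPM in EpiLCs. In PGCLCs it was at 18.7, 21.7 and 16.8 CPM on day 2, 21.9, 29.6 and 19.7 CPM on day 4 and 10.8, 17.3 and 14.5 CPM on day 6. The EpiLC samples were thus the lowest 3 of the 15, and the ESC, D2PGCLC and D4PGCLC samples overlapped. The log2 fold change was -1.66 ± 0.18 (adjusted p = 3.35e-07) from ESCs to EpiLCs and 1.47 ± 0.18 (adjusted p = 1.56e-06) from EpiLCs to D2PGCLCs. Against ESCs it was -0.19 ± 0.17 on day 2 (95% interval -0.55 to 0.17) and 0.13 ± 0.17 on day 4 (-0.23 to 0.48), neither past the test. From day 4 to day 6 it was -0.74 ± 0.17 (adjusted p = 0.00868), smaller than the cutoff, and -0.57 without D6PGCLC replicate 1 (adjusted p = 0.0450). D6PGCLCs were called higher than EpiLCs by 1.05 ± 0.18, just past the cutoff, and by 1.22 without D6PGCLC replicate 1; the call was lost without EpiLC replicate 1 (1.00, below the cutoff before rounding) or D6PGCLC replicate 2 (0.88). The samples of days 2 and 4, when *T* had 0 to 5 counts, thus overlapped those of ESCs in *Eomes*. The values of 18.7 and 16.8 CPM on day 2 lay below the range of ESCs, and 29.6 CPM on day 4 lay above it. Among the genes most like *Eomes* in course were *Pfkp*, which encodes a phosphofructokinase of glycolysis (r = 0.960), and *Manba*, which encodes a lysosomal mannosidase (r = 0.957).

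*Tbx3* (ENSMUSG00000018604, chr5 119670669-119684724, plus strand) was the most abundant of the 8 genes in ESCs, at 156, 150.4 and 159 CPM. It was at 6.20, 7.49 and 7.26 CPM in EpiLCs, and in PGCLCs at 18.3, 17.8 and 16.5 CPM on day 2, 35.8, 36.7 and 40.6 CPM on day 4, and 75.7, 65.7 and 82.7 CPM on day 6. The 5 groups did not overlap, and their order was ESCs, D6PGCLCs, D4PGCLCs, D2PGCLCs and EpiLCs. As a share of the mean ESC level, *Tbx3* was at 4.51% ± 0.447 in EpiLCs, 11.3% ± 0.611 on day 2, 24.3% ± 1.63 on day 4 and 48.2% ± 5.52 on day 6. The log2 fold change was -4.47 ± 0.11 (adjusted p = 1.22e-15) from ESCs to EpiLCs, 1.33 ± 0.11 (adjusted p = 5.49e-09) to day 2 and 1.10 ± 0.10 (adjusted p = 2.38e-06) to day 4. The step from day 4 to day 6 was 0.99 ± 0.09 (adjusted p = 4.68e-06), and 0.98 without D6PGCLC replicate 1. It lay just below the cutoff of 1 and just above it under DESeq2 and DESeq2 size factors (both 1.01), in a fit of the 2 groups (1.00, above 1 before rounding), and without D4PGCLC replicate 3 (1.04) or D6PGCLC replicate 2 (1.06). The log2 fold change of D6PGCLCs relative to ESCs was -1.05 ± 0.09 (adjusted p = 2.09e-08), and this call held without D6PGCLC replicate 1 and was lost without D6PGCLC replicate 2 (-0.97).

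**Figure D3:**
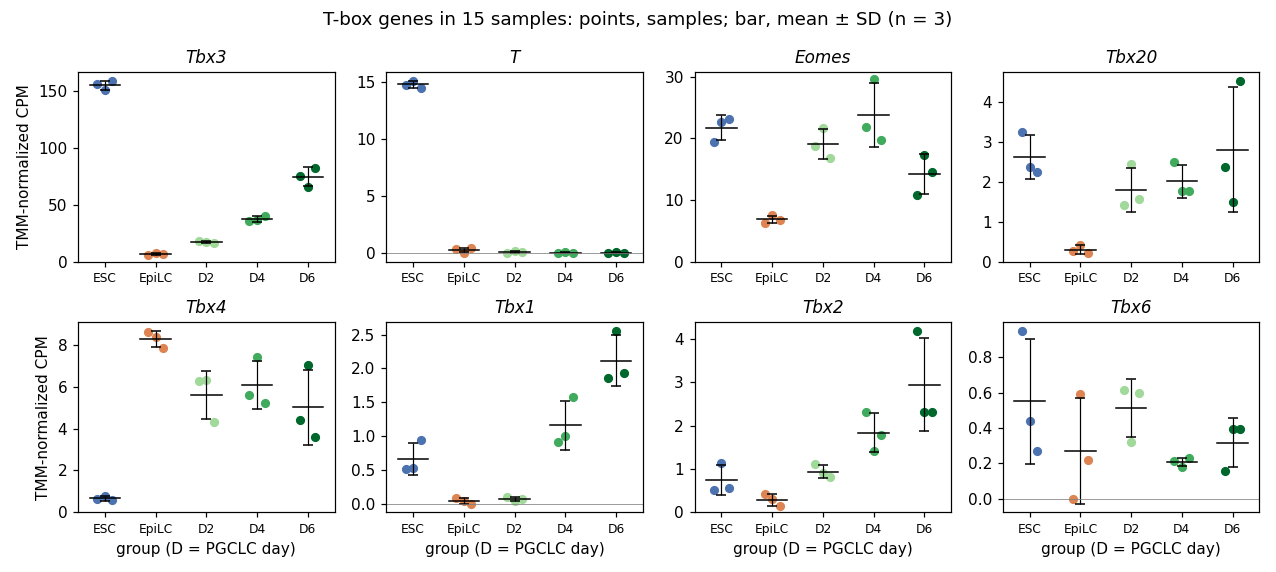
TMM-normalized CPM (y axis, linear, scaled per gene) of the 8 T-box genes in each of the 15 samples (points) by group (x axis), with the mean ± SD of 3 samples as bars. *Tbx3* rises from EpiLCs to D6PGCLCs without overlap of samples, *T* is high only in the 3 ESC samples, *Eomes* and *Tbx20* are lowest in EpiLCs, *Tbx4* is lowest in ESCs, and *Tbx1* and *Tbx2* have their highest means in D6PGCLCs.

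*Tbx3* was compared with 14 other genes of the naive pluripotency circuit, all of which passed the filter. They include *Nanog*, 1 of the transgenes, whose reads the counts do not separate from those of the endogenous gene. From ESCs to EpiLCs 9 of them were called lower and none higher, against 11.9% and 14.4% of tested genes. Their median log2 fold change was -1.99, against -0.01 for all genes. *Tfcp2l1*, a LIF-responsive factor of naive cells, fell by 4.93 ± 0.15, *Socs3*, a target and inhibitor of LIF signaling, by 3.90 ± 0.42, *Klf4* by 3.41 ± 0.15 and *Klf5* by 3.19 ± 0.15 on the log2 scale. From EpiLCs to D2PGCLCs 7 were called higher and 2 lower (median 0.95, all genes 0.00), against 11% and 14.4% of tested genes. *Esrrb* rose by 3.21 ± 0.09, *Klf5* by 2.80 ± 0.15, *Tfcp2l1* by 2.54 ± 0.14 and *Tcl1* by 2.28 ± 0.12 at this step, each more than the 1.33 of *Tbx3*, while the 2 called lower, *Klf4* and *Fgf4*, fell by 1.44 ± 0.15 and 1.30 ± 0.14. From day 2 to day 6, 10.9% of tested genes were called higher. The circuit genes called were *Klf4* (1.67 ± 0.15), *Socs3* (1.17 ± 0.40) and *Stat3* (1.02 ± 0.09), all higher, and *Tbx3* rose by 2.09 ± 0.10. Without D6PGCLC replicate 1 these were 1.53, 1.19, 1.02 and 2.08. *Klf4*, *Socs3*, *Tfcp2l1* and *Stat3*, which transduces the LIF signal, were the 4 called below ESCs on day 6, by -3.18, -2.60, -2.01 and -1.85, and still called without that replicate, at -3.30 to -1.84. Of all tested genes, 10.3% were called lower than in ESCs on day 6. The differences between these genes and *Tbx3* in size of change were not tested.

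**Figure D4:**
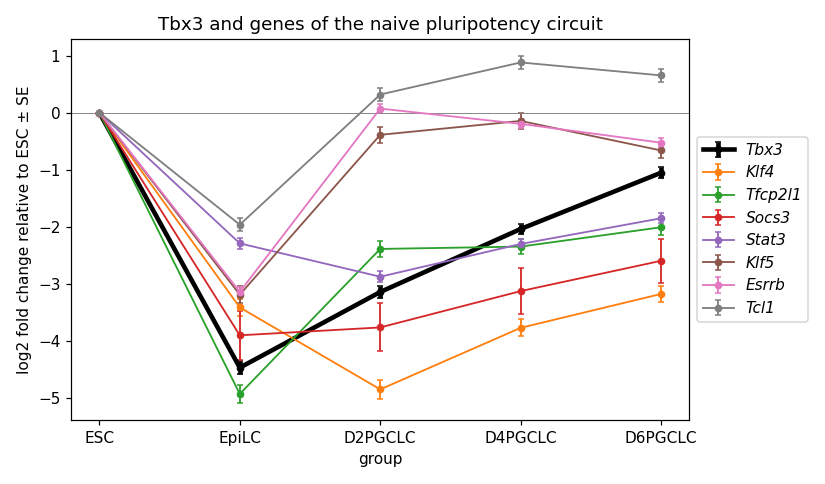
Fitted log2 fold change relative to ESCs ± SE (y axis; ESCs at 0) of *Tbx3* (thick black line) and 7 genes of the naive pluripotency circuit across the groups (x axis). *Esrrb*, *Klf5* and *Tcl1* lie at 0.07, -0.39 and 0.32 on day 2, whereas *Tbx3* lies at -3.14 on day 2 and climbs to -1.05 on day 6, and *Klf4* has its lowest value, -4.85, on day 2.

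The genes closest to *Tbx3* in course were *Nid1* (r = 0.992), *Pramel6* (r = 0.989) and *Echdc2* (r = 0.987). *Nid1*, which encodes the basement membrane protein nidogen, was at 241, 24.1, 40.7, 85.1 and 157 CPM in the means of ESCs, EpiLCs and PGCLC days 2, 4 and 6. An antisense gene, *Tbx3os1*, overlaps *Tbx3* by 115 of its 6624 exon bases and had 13 to 40 counts in ESCs, 0 to 1 in EpiLCs, 1 to 4 on day 2, 13 to 24 on day 4 and 19 to 84 on day 6. *Gm33460* overlaps *Eomes* in the same way by 118 of 4155 bases, with 1 to 23 counts over all samples. Whether the counting used strand is not given in the sources used here, so reads in these overlaps cannot be told apart, and they were few beside those of *Tbx3* and *Eomes*.

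*Tbx2* (ENSMUSG00000000093, chr11 85832551-85841948, plus strand), a repressor related to *Tbx3*, was low throughout, with 14, 26 and 17 counts in ESCs and 11, 9 and 4 in EpiLCs. In PGCLCs it had 36, 25 and 27 counts on day 2, 76, 47 and 62 on day 4 and 159, 105 and 82 on day 6. In CPM the groups ran from EpiLCs (0.288 ± 0.137) through ESCs (0.740 ± 0.347) and D2PGCLCs (0.936 ± 0.151), which overlapped, to D4PGCLCs (1.83 ± 0.446) and D6PGCLCs (2.94 ± 1.07). *Tbx2* was called higher in D2PGCLCs than in EpiLCs (log2 fold change 1.69 ± 0.46, adjusted p = 0.00454). D6PGCLCs were higher than D2PGCLCs by 1.64 ± 0.39 (adjusted p = 0.00282; 1.31 without D6PGCLC replicate 1, its highest sample) and than ESCs by 2.00 ± 0.40 (adjusted p = 3.85e-04; 1.68 without that sample). The fall from ESCs to EpiLCs, -1.33 ± 0.47 (adjusted p = 0.0241), was not called in a fit of the 2 groups (adjusted p = 0.0527), nor without ESC replicate 2 (-0.91, adjusted p = 0.148), EpiLC replicate 2 (-1.35, adjusted p = 0.0561) or EpiLC replicate 3 (-1.02, adjusted p = 0.108). The higher level in D4PGCLCs than in ESCs, 1.32 ± 0.41 (adjusted p = 0.0110), was lost without ESC replicate 1 (1.12) or D4PGCLC replicate 1 (1.13), with adjusted p-values of 0.0559 and 0.0501. The closest courses were those of *Bet1* (r = 0.949), *Jak2*, a kinase of cytokine receptors (r = 0.947), and *Sema4g* (r = 0.946).

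*Tbx4* (ENSMUSG00000000094, chr11 85886422-85916097, plus strand), known for hindlimb and lung development, begins 44.5 kb downstream of the end of *Tbx2* and took another course. It was at 0.656, 0.789 and 0.569 CPM in ESCs and at 8.60, 8.38 and 7.85 CPM in EpiLCs. In PGCLCs it was at 6.25, 6.30 and 4.29 CPM on day 2, 5.61, 7.41 and 5.24 CPM on day 4 and 4.39, 7.04 and 3.60 CPM on day 6. The 3 ESC samples lay below all others, the 3 EpiLC samples above all others, and the days of PGCLC culture overlapped. *Tbx4* was higher in EpiLCs than in ESCs by 3.63 ± 0.29 (adjusted p = 4.82e-09), and in D6PGCLCs than in ESCs by 2.91 ± 0.29 (adjusted p = 1.05e-07; 3.02 without D6PGCLC replicate 1). From EpiLCs to D2PGCLCs the difference was -0.56 ± 0.23 (adjusted p = 0.0516), not past the test. From EpiLCs to D6PGCLCs it was -0.72 ± 0.23 (adjusted p = 0.0133), smaller than the cutoff; it was -0.62 without D6PGCLC replicate 1 (adjusted p = 0.0501) and past the cutoff at -1.05 without D6PGCLC replicate 2. *Lrrfip1* (r = 0.985), *Ccdc162* (r = 0.974) and *Lrrn4* (r = 0.971) followed the most similar course. Fibroblast markers (*Col1a1*, *Col1a2*, *Col3a1*, *Thy1*, *Twist1* and *Postn*) summed to 8.85 to 10.2 CPM in ESCs and 19.6 to 22.3 in EpiLCs. In PGCLCs their sum was 1.77 to 2.97 on day 2, 3.70 to 3.98 on day 4 and 4.56 to 5.17 on day 6. The part of such cells in the level of *Tbx4* was not tested.

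*Tbx1* (ENSMUSG00000009097, chr16 18580979-18590671, minus strand), a factor of the pharyngeal region and the second heart field, had 14, 12 and 28 counts in ESCs and 2, 1 and 0 in EpiLCs. In PGCLCs it had 3, 1 and 2 counts on day 2, 30, 33 and 55 on day 4 and 71, 116 and 68 on day 6. EpiLCs and D2PGCLCs were near the floor of 3 counts, all D4PGCLC and D6PGCLC samples were above them, and D6PGCLC samples were above those of every other group in CPM. Over pooled counts D2PGCLCs held 5.48% of the level in D4PGCLCs (95% exact interval 1.97% to 12.3%) and 2.98% of that in D6PGCLCs (1.08% to 6.57%), and EpiLCs held 5.31% (1.06% to 16.4%) and D2PGCLCs 9.48% (3.33% to 22.0%) of that in ESCs. These intervals cover counting error only. edgeR called *Tbx1* lower in EpiLCs and D2PGCLCs than in ESCs (adjusted p = 5.30e-05 and 1.55e-04) and higher in D4PGCLCs than in D2PGCLCs (adjusted p = 2.61e-04). In CPM it reached 1.16 ± 0.362 in D4PGCLCs and 2.11 ± 0.381 in D6PGCLCs, against 0.658 ± 0.242 in ESCs. The log2 fold change relative to ESCs was 0.80 ± 0.45 on day 4 (adjusted p = 0.142) and 1.67 ± 0.44 on day 6 (adjusted p = 0.00374), or 1.77 without D6PGCLC replicate 1 (adjusted p = 0.00309). *Tmem191c* (r = 0.959), *Gcdh* (r = 0.954) and *Tuba3a* (r = 0.948) were closest in course.

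*Tbx20* (ENSMUSG00000031965, chr9 24718138-24774303, minus strand), a factor of the developing heart, had 89, 54 and 67 counts in ESCs and 7, 13 and 6 in EpiLCs. In PGCLCs it had 46, 68 and 52 counts on day 2, 82, 59 and 62 on day 4, and 90, 68 and 160 on day 6. The EpiLC samples lay below all others and the other 4 groups overlapped. It fell by 3.07 ± 0.45 on the log2 scale from ESCs to EpiLCs (adjusted p = 1.20e-05) and rose by 2.53 ± 0.45 to D2PGCLCs (adjusted p = 1.08e-04). Relative to ESCs the log2 fold change was -0.54 ± 0.37 on day 2, -0.38 ± 0.37 on day 4 and 0.09 ± 0.36 on day 6 (95% interval -0.68 to 0.85; 0.21 without D6PGCLC replicate 1), none past the test. *Tmem136* (r = 0.917), *Mcoln1* (r = 0.916) and *Pbxip1* (r = 0.912) were closest in course.

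*Tbx6* (ENSMUSG00000030699, chr7 126781483-126785560, plus strand), which specifies paraxial mesoderm, had 26, 10 and 8 counts in ESCs and 0, 18 and 6 in EpiLCs. In PGCLCs it had 20, 9 and 20 counts on day 2, 7, 6 and 8 on day 4 and 6, 18 and 14 on day 6. Its group means were 0.207 to 0.551 CPM, and replicates of a group differed by as much as groups did. *Tbx6* was called in none of the 10 comparisons, and at these counts a change of the size of the cutoff was not detectable: the log2 fold change of EpiLCs relative to ESCs was -0.99 ± 0.80 (95% interval -2.68 to 0.70). Its closest courses were less alike than those of the other members, with r = 0.774 for *Fbxo45*, 0.733 for *Zrsr1* and 0.691 for *Wipf2*.

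The late rise of *Tbx1* and *Tbx2* was set beside 16 other factors of the heart and of BMP signaling, of which 13 passed the filter. From day 2 to day 4, 4 were called higher and none lower (median log2 fold change 1.05, all genes 0.02), against 2.56% and 0.376% of tested genes. Among the 4 were *Gata6*, higher by 2.86 ± 0.52, *Hand1* by 1.57 ± 0.29 and *Id1*, a BMP target, by 1.02 ± 0.27. From day 2 to day 6, 5 were called higher and 2 lower, against 10.9% and 2.75% of tested genes. Without D6PGCLC replicate 1, 6 were called higher and 2 lower. *Gata6* was higher by 5.22 ± 0.51, *Hand1* by 3.40 ± 0.30 and *Gata4* by 1.97 ± 0.31 on day 6 than on day 2, or 4.78, 3.39 and 1.99 without that replicate. *Mef2c*, with 0 to 14 counts on day 6 and 0 in each sample of day 2, was called higher (adjusted p = 0.0363) but not without that replicate (adjusted p = 0.261), where *Isl1* and *Msx1* were called instead (adjusted p = 0.0155 and 0.00976). The 2 called lower on day 6 than on day 2 were *Msx2* and *Id3*, a BMP target, by -1.85 ± 0.44 and -1.65 ± 0.14, or -1.79 and -1.64 without that replicate. From EpiLCs to D2PGCLCs, 2 were called higher and 3 lower (median -0.11, all genes 0.00), against 11% and 14.4% of tested genes. *Bmp4*, which encodes the ligand that induces germ cells in the embryo, rose by 3.01 ± 0.22 at this step. *Msx2*, a BMP-responsive homeobox gene, rose by 3.16 ± 0.50. The means of *Id1*, *Id2* and *Id3* were 4.15, 10.9 and 25.3 CPM in EpiLCs and 3.85, 8.38 and 28.0 CPM in D2PGCLCs. *Msx1* had 79 to 109 counts in EpiLCs and 0 to 2 in D2PGCLCs, and *Mef2c* 10 to 23 and 0, and both were called lower. *Mef2c* passed the filter only through its level in EpiLCs, which largely set the direction of its call. *Gata6* is also known from primitive endoderm and *Hand1* from trophoblast. The summed level of 6 trophoblast markers (*Elf5*, *Cdx2*, *Hand1*, *Ascl2*, *Krt7* and *Gata3*), all detected in each group, was 3.24 to 3.68 CPM in ESCs, 10.5 to 12.7 in EpiLCs, 10.2 to 10.7 on day 2, 15.2 to 18.9 on day 4 and 25.9 to 34.8 on day 6. That of 5 endoderm markers (*Sox17*, *Gata6*, *Gata4*, *Foxa2* and *Cer1*) was 5.07 to 6.35 CPM in ESCs, 2.60 to 3.06 in EpiLCs, 0.690 to 1.15 on day 2, 3.32 to 4.01 on day 4 and 9.02 to 16.9 on day 6, where *Foxa2* had 0 to 2 counts and *Cer1* was at 0. On day 6 *Gata6* (mean 9.24 CPM) made up most of the endoderm sum, and *Hand1* (13.1 CPM) and *Gata3* (10.4 CPM) most of the trophoblast sum, so that *Gata6*, *Gata4* and *Hand1* count both in these sums and in the list of heart factors. Both sums, like *Tbx1* and *Tbx2*, were higher in every sample of day 6 than of day 2, and the part of such cells in the levels of these genes was not tested.

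Of the 9 other T-box genes, *Tbr1*, *Tbx5*, *Tbx10* and *Tbx19* did not pass the filter and had at most 14 counts in any sample. *Tbx5* lies 147.9 kb from *Tbx3* and had 2 to 10 counts in ESCs and 0 to 2 in every later sample. *Mga*, which encodes a T-box and Max-binding protein of a Polycomb complex that represses germline genes in ESCs, was the most abundant gene of the family per length in every group, from 13.6 ± 3.79 CPM per kb in D4PGCLCs to 26.6 ± 1.49 in ESCs, and at 26.1 ± 2.67 exceeded the sum of the 8 genes in EpiLCs. Its log2 fold change relative to ESCs was -0.03 ± 0.14 in EpiLCs, -0.38 ± 0.14 in D2PGCLCs (adjusted p = 0.0375), -0.96 ± 0.15 in D4PGCLCs (adjusted p = 1.97e-05) and -0.82 ± 0.14 in D6PGCLCs (adjusted p = 1.04e-04), all smaller than the cutoff. *Tbx15*, *Tbx18* and *Tbx21* fell from ESCs to EpiLCs, by 2.97 ± 0.51, 3.51 ± 0.65 and 2.14 ± 0.49 on the log2 scale. They were the 3 called lower among the 5 tested other T-box genes, at a step where 11.9% of all tested genes were called lower. *Tbx21*, known from T helper cells, fell again from EpiLCs to D2PGCLCs, by 3.34 ± 0.65, where *Tbx18* did not pass the test (1.07 ± 0.72). *Tbx18* was higher on day 6 than on day 2 by 2.80 ± 0.58 (2.72 without D6PGCLC replicate 1), and *Tbx21*, at 11 to 22 counts against 2 to 3, was also called higher (adjusted p = 0.0107; 0.0462 without that replicate). *Tbx22*, which passed the filter only through its level in EpiLCs, had 16 to 25 counts there against 0 to 1 in ESCs. Its ESC level over pooled counts was 1.84% of that in EpiLCs (95% exact interval 0.0457% to 10.7%, counting error only). It had 0 to 5 counts in every PGCLC sample.

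**Figure D5:**
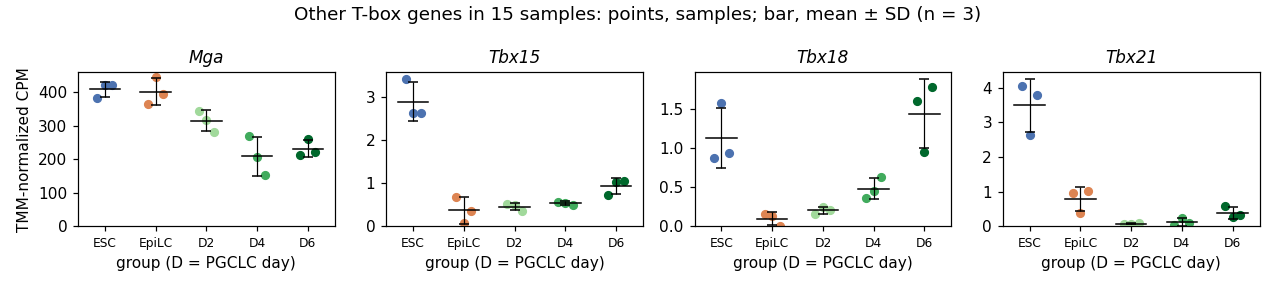
TMM-normalized CPM (y axis, linear, scaled per gene) of *Mga*, *Tbx15*, *Tbx18* and *Tbx21* in the 15 samples (points) by group (x axis), with mean ± SD of 3 samples. *Mga* is highest in ESCs and EpiLCs, *Tbx15* and *Tbx21* are highest in ESCs, and *Tbx18* is high in ESCs and D6PGCLCs.

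Relative to EpiLCs, the direct precursors, 5 of the 8 genes (*Eomes*, *Tbx1*, *Tbx2*, *Tbx3* and *Tbx20*) were called higher on day 4, against 14% of tested genes, and 1 (*T*) lower, against 12.8%. On day 6 the counts were again 5 higher and 1 lower, against 15.9% and 12%, also without D6PGCLC replicate 1. The 1 lower was *T* on both days, which passed the filter only through ESCs. Its samples in these groups overlapped, and both calls were lost without EpiLC replicate 3. Relative to ESCs, 1 gene (*Tbx4*) was higher and 3 (*T*, *Tbx1* and *Tbx3*) were lower on day 2, against 11.7% and 12.7% of tested genes. On day 4, 2 (*Tbx2* and *Tbx4*) were higher and 2 (*T* and *Tbx3*) lower, against 13.9% and 10.9%. On day 6, 3 (*Tbx1*, *Tbx2* and *Tbx4*) were higher and 2 (*T* and *Tbx3*) lower, against 15.8% and 10.3%, with the same counts without D6PGCLC replicate 1. The level of *T* in ESCs alone brought it past the filter, which largely set the direction of its calls against ESCs. These comparisons share their ESC or EpiLC samples, so that their counts are not independent of one another.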

How the data were processed

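RNA was purified with TRIzol and made into stranded libraries (NEBNext Ultra II Directional). The authors aligned the reads to mm10 with ENSEMBL annotations and deposited raw counts per gene, unnormalized; the submitters' processing notes list Trim Galore, FastQC and STAR, and the counting tool and annotation release are not given in the sources used here. From these counts, edgeR 4.0.16 in R 4.3.3 fitted all 15 samples with 1 coefficient per group (TMM normalization, filterByExpr with a minimum of 10 counts), and p-values were adjusted (Benjamini-Hochberg) over 18090 genes. Symbols, coordinates and exon lengths came from GENCODE M21, which matched all 55536 identifiers. Promoter windows came from RefSeq.

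Groups came from the sample labels, which do not state whether replicates were separate cultures, so p-values measure the spread between these samples. Replicates of a group differed beyond counting error (chi-square of 8.82 to 44.6 per gene). The members and lists were chosen with earlier results of these data known. Named genes were the T-box genes, the genes with the 4 largest called changes of each list in the comparison described, and the 3 most correlated genes per member; *Tbx3os1* and *Gm33460* were named for their overlap, and *Klf4* and *Fgf4* at the step to day 2 were chosen after their values were seen. Of the genes this rule names, 2 are not reported here. The alternatives were DESeq2 1.42.0, which the study's methods name, its size factors in edgeR, no filter, a replicate block, only the 2 groups compared, and each replicate left out in turn. The edgeR and DESeq2 steps were also run on simulated counts of ESCs and EpiLCs only, with 200 changed genes. That run did not cover the fit of all 15 samples.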

Additional observations from a re-analysis of the deposited data

How the results depend on the processing

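Depth and n = 3 limit what the low genes can show: *T*, *Tbx1* and *Tbx6* were at or near the floor of 3 counts in some groups, where only large changes could be called. The number of T-box genes called stayed within 1.5 times the reported count under every alternative in 9 of the 10 comparisons. The exception was D6PGCLCs against D4PGCLCs, with 0 genes called as reported and 1 (*Tbx3*) under DESeq2, under DESeq2 size factors in edgeR and in a fit of the 2 groups, and 0 to 1 when a replicate was left out. Among the 66 changes of single genes followed, 65 kept their direction and call under DESeq2, 65 under its size factors and 65 without the filter, where *T* from EpiLCs to D2PGCLCs was called lower (-1.61, adjusted p = 0.0379). In fits of the 2 groups, 59 of 61 kept both. The other 5 had no value there, since the gene failed the filter without the other groups (*T* for the 3 days against EpiLCs, *Tbx1* and *Tbx6* for 1 comparison each). Scaling by DESeq2 size factors moved the median of all genes by at most 0.058 on the log2 scale.

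With the replicate number as a block, all 66 kept their direction and call. The numbers were not taken to pair the samples, since the labels do not say that they do. Deviations of same-numbered samples correlated at 0.0703 on average (-0.184 to 0.358 over 30 pairs), and those of other samples at -0.0352. Of 15 samples, 8 correlated best with their own number. Correlations above 0.1 occurred in 8 of the 30 same-numbered pairs and in 4 of the 60 others. Some pairing is therefore possible.

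Of 396 fits without 1 replicate, 371 kept direction and call, 13 lost a call, 5 gained one and 7 reversed a change that was not called. Over these fits *Tbx4* from day 2 to day 4 ran from -0.050 to 0.22, *Tbx20* from -0.014 to 0.44 at that step, from -0.070 to 0.77 from day 4 to day 6 and from -0.43 to 0.39 between ESCs and day 6, and *Eomes* between ESCs and day 4 from -0.061 to 0.25.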
